A study of Caenorhabditis elegans with 4 samples.

Results

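The cytochrome P450 genes of Caenorhabditis elegans were described in whole-animal RNA from adults of the wild-type strain N2. Members were all loci whose deposited name begins with cyp- and a number, which gave 75 of 19852 loci. Of these, 36 had a mean of at least 1 RPKM (read number corrected for transcript length and sequencing depth) over the 4 libraries and were compared, among 10655 compared loci in all. The libraries were fed elt-2 RNAi and kept in hypoxia, fed elt-2 RNAi and kept in normoxia, fed control RNAi and kept in hypoxia, or fed control RNAi and kept in normoxia. Exposure began at day 1 of adulthood and lasted 36 h, with 0.5% oxygen in nitrogen as hypoxia, on the same RNAi medium in all groups and at a stated 20 degrees C (chamber at room temperature). Each group was 1 library of bulk RNA, so no level has a replicate error, and fewer cells of a type cannot be told apart from less RNA per cell. Nothing in the labels says how many animals or cultures a library came from.

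Cytochrome P450 enzymes are haem proteins that insert an oxygen atom into fatty acids, sterols and foreign chemicals, with electrons passed on from NADPH by a reductase. In C. elegans many of the genes lie in tandem arrays, and many are active in the intestine, the main site of detoxification and fat storage. elt-2 encodes a GATA transcription factor of the intestine. HIF-1, the hypoxia-inducible factor, is stabilized when the oxygen-dependent hydroxylase EGL-9 cannot act.

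RNA of the targeted gene was higher, not lower, under the elt-2 RNAi label. elt-2 was at 23.8 RPKM in hypoxia and 14.3 in normoxia in the libraries labelled elt-2 RNAi, against 15.2 RPKM in hypoxia and 4.81 in normoxia with control RNAi. These libraries are therefore called labelled elt-2 RNAi, and every RNAi direction rests on that label. All 11 intestine markers were compared and none was at 0. Their summed level was 2154 RPKM in hypoxia and 1237 in normoxia with labelled elt-2 RNAi, and 3928 RPKM in hypoxia and 1936 in normoxia with control RNAi. Of the 11 markers, 6 were at least 2-fold higher in hypoxia in each RNAi food, beside 9.87% of all compared loci in labelled elt-2 RNAi and 9.48% in control RNAi. With labelled elt-2 RNAi, 3 were at least 2-fold lower in normoxia (3.66% of all). In hypoxia 3 were lower (5.08% of all) and 1 higher (1.94% of all). The summed level thus moved with oxygen and with the RNAi label. Much of the RNAi difference lay in asp-1. This marker was at 475 RPKM in hypoxia and 360 in normoxia with labelled elt-2 RNAi, against 1767 and 760 with control RNAi. The summed level of the 5 body wall muscle markers also moved with oxygen. It was 1238 RPKM in hypoxia and 493 in normoxia with labelled elt-2 RNAi, and 1291 RPKM in hypoxia and 531 in normoxia with control RNAi. Most of it was mlc-2, at 836 RPKM in hypoxia and 288 in normoxia with labelled elt-2 RNAi, and at 890 and 315 with control RNAi. In each food 3 of the 5 were at least 2-fold higher in hypoxia, beside 9.87% and 9.48% of all compared loci. myo-3 was at 3.57 RPKM in both control RNAi libraries. The 6 embryo markers moved the other way, at 96.5 RPKM in hypoxia and 237 in normoxia with labelled elt-2 RNAi, and at 154 RPKM in hypoxia and 378 in normoxia with control RNAi. Neuron sums lay between 232 and 267 RPKM and epidermis sums between 145 and 192 RPKM over the 4 libraries, but single markers moved. In each food, wrt-10 and sqt-3 of 5 compared epidermis markers and unc-64 of 6 neuron markers were at least 2-fold higher in hypoxia. None of either list was at least 2-fold lower in hypoxia. The part of these marker levels in the P450 results was not tested.

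Summed over all 75 loci, P450 transcripts were at 799.9 RPKM in hypoxia and 597 in normoxia with labelled elt-2 RNAi, and at 969 RPKM in hypoxia and 609 in normoxia with control RNAi. The totals in normoxia were close, but the parts from subfamily 13A and family 35 differed. Loci outside the reported families made up much of both totals, at 352 RPKM in normoxia with labelled elt-2 RNAi and 331 with control RNAi. Subfamily 13A summed to 271 RPKM with labelled elt-2 RNAi against 90.5 with control RNAi in hypoxia, and to 107 RPKM with labelled elt-2 RNAi against 22.8 with control RNAi in normoxia. Family 35 summed to 27.2 RPKM with labelled elt-2 RNAi against 406 with control RNAi in hypoxia, and to 20.1 RPKM with labelled elt-2 RNAi against 160.3 with control RNAi in normoxia. The library labelled elt-2 RNAi was thus the higher one for 13A and the lower one for family 35 at both oxygen levels.

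**Figure D1:**
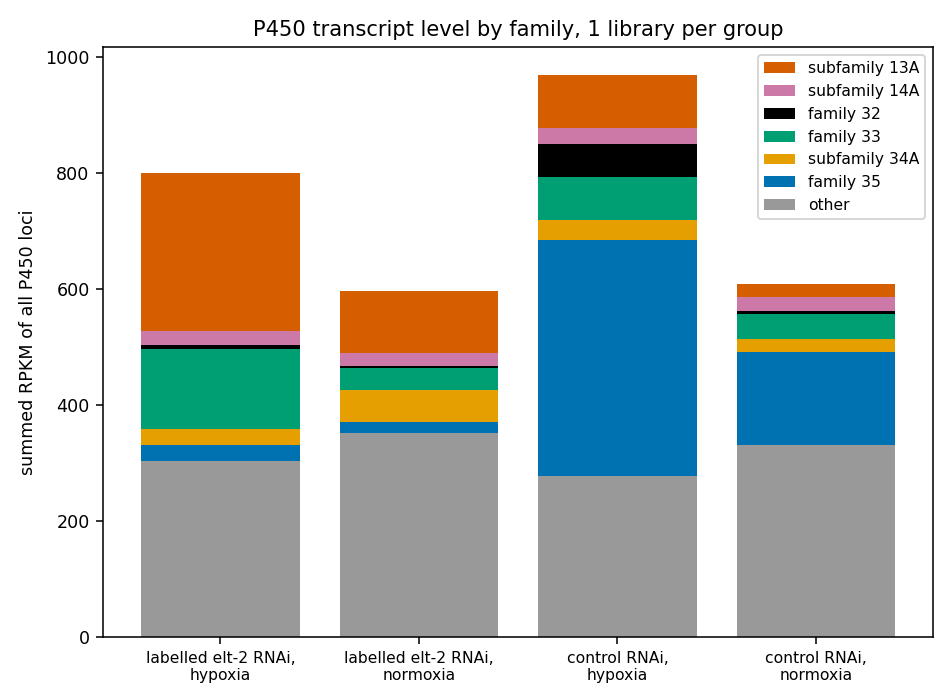
Summed RPKM of all 75 P450 loci in each of the 4 libraries, stacked by family, with 1 library per bar and no error. Subfamily 13A makes up 271 of 799.9 RPKM in hypoxia with labelled elt-2 RNAi, and family 35 makes up 406 of 969 RPKM in control RNAi hypoxia.

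Levels were uneven among members. The eggshell gene cyp-31A2 had the highest RPKM of all P450 loci in 3 of the 4 libraries, at 157 in hypoxia and 177 in normoxia with labelled elt-2 RNAi, and at 142 in normoxia with control RNAi. The highest in hypoxia with control RNAi was cyp-35A2 at 245 RPKM, a quantity equal to 25.3% of the P450 sum of that library. Loci at 1 RPKM or more numbered 33 in hypoxia and 31 in normoxia with labelled elt-2 RNAi, and 40 in hypoxia and 35 in normoxia with control RNAi.

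**Figure D2:**
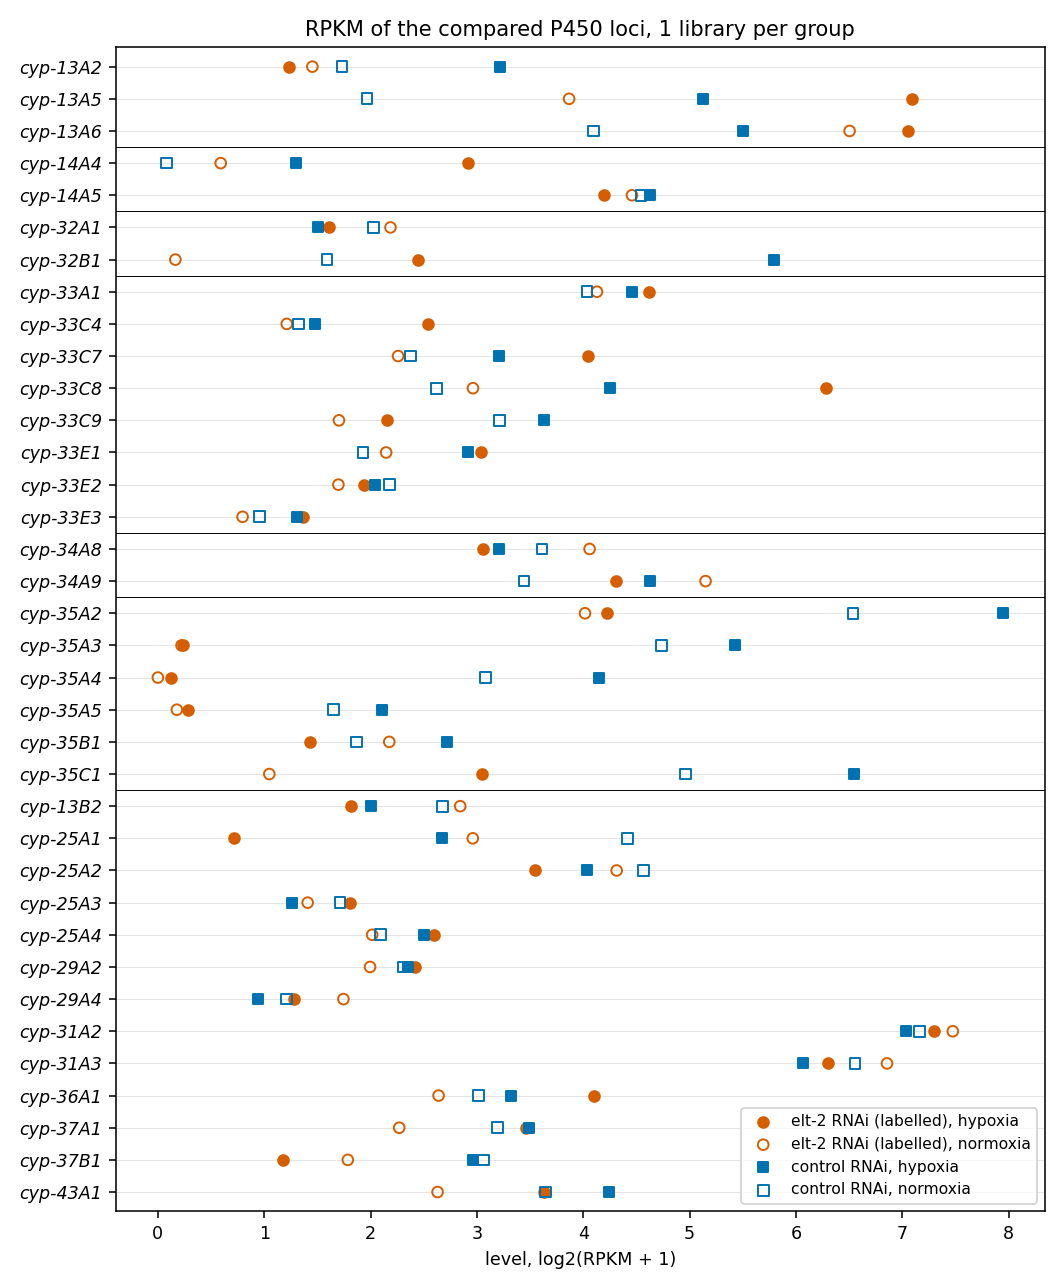
Level of each of the 36 compared P450 loci, as log2(RPKM + 1), in the 4 libraries; filled symbols are hypoxia, open symbols normoxia, circles labelled elt-2 RNAi and squares control RNAi. The symbols for cyp-35A3 lie at 0.18 and 0.167 RPKM (circles) and at 42.1 and 25.6 RPKM (squares), whereas those of cyp-31A2 lie close together.

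In hypoxia, P450 loci were more often higher than lower. In the libraries labelled elt-2 RNAi, 9 of the 36 compared loci were at least 2-fold higher in hypoxia than in normoxia, where 9.87% of all compared loci were, and 3 were at least 2-fold lower (4.25% of all). In control RNAi, 10 of 36 were at least 2-fold higher (9.48% of all) and 1 at least 2-fold lower (3.55% of all). The median log2 ratio of the 36 loci was 0.32 in labelled elt-2 RNAi and 0.42 in control RNAi, beside medians of -0.01 and 0.01 over all compared loci. With no filter on low genes the P450 medians were 0.07 in labelled elt-2 RNAi and 0.24 in control RNAi. These ratios, here and below, are log2 of (RPKM + 1) in one library over (RPKM + 1) in another, a scale that understates the change of low genes.

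cyp-13A5, cyp-14A4, cyp-32B1, cyp-33C8 and cyp-35C1 were past 2-fold higher in both RNAi foods, which is 5 of the 9 in labelled elt-2 RNAi and 5 of the 10 in control RNAi. cyp-25A1 was past 2-fold lower in both. The comparisons in the 2 foods share no library, and 30 of 36 loci had the same sign in both, beside 9014 of 10655 over all compared loci, which is about the same share. Over all compared loci, 624 were past 2-fold higher in both foods, of 1052 in labelled elt-2 RNAi and 1010 in control RNAi. Spearman's rho over the 36 loci was 0.61, beside 0.81 over all compared loci. Both values are across genes, which are not independent replicates.

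Averaged over both RNAi foods with limma, 10 P450 loci rose in hypoxia (17.2% of all compared loci were called higher) and 4 fell (15.7% called lower), at a Benjamini-Hochberg adjusted p of 0.05 or less over all compared loci. Those that rose were cyp-13A5, cyp-13A6, cyp-14A4, cyp-32B1, cyp-33A1, cyp-33C7, cyp-33C8, cyp-33E1, cyp-35C1 and cyp-43A1. Those that fell were cyp-13B2, cyp-25A1, cyp-25A2 and cyp-31A3. This fit has 1 residual degree of freedom and takes any difference between RNAi foods as error, so it favours genes that moved alike in both. Without its mean-variance trend it called 6 loci, 5 of them among the 14, beside 2182 of all 10655 compared loci. With no filter it called 6, all among the 14, beside 2215 of 17194 loci. cyp-13A5, cyp-25A1 and cyp-35C1 were called in hypoxia under each of the 5 alternatives run with limma. The 4 that fell made up 11.1% of the 36 loci, beside 15.7% of all compared loci, a gap that was not tested.

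**Figure D3:**
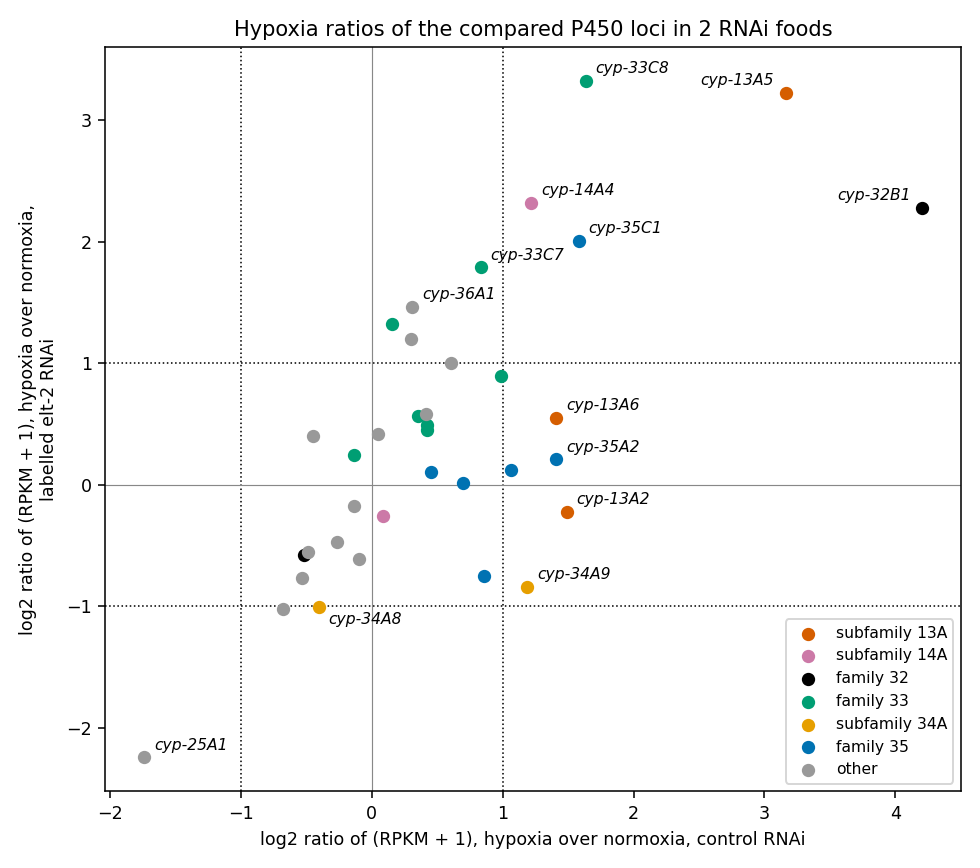
Log2 ratio of (RPKM + 1), hypoxia over normoxia, for the 36 compared P450 loci in labelled elt-2 RNAi (y) and control RNAi (x), 1 library per group; dotted lines mark 2-fold. On y and x, cyp-13A5 lies at 3.22 and 3.16, cyp-32B1 at 2.28 and 4.21, and cyp-25A1 at -2.24 and -1.74, while cyp-34A9 lies at -0.84 and 1.19.

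With labelled elt-2 RNAi, lower P450 loci outnumbered higher ones. In hypoxia, 11 of 36 were at least 2-fold lower than with control RNAi (5.08% of all compared loci) and 5 at least 2-fold higher (1.94% of all). In normoxia, 10 were at least 2-fold lower (3.66% of all), with cyp-35A4 listed at 0, and 3 at least 2-fold higher (1.23% of all). The medians over the 36 loci were near 0, at -0.06 in hypoxia and -0.14 in normoxia, beside 0.05 and 0.04 over all compared loci. The P450 genes therefore did not move as one, since the loci past 2-fold lay on both sides.

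Of the loci past 2-fold lower, 9 were so at both oxygen levels, which is 9 of 11 in hypoxia and 9 of 10 in normoxia. Over all compared loci, 286 were lower at both, of 541 in hypoxia and 390 in normoxia. They were cyp-25A1, cyp-32B1, cyp-33C9, cyp-35A2, cyp-35A3, cyp-35A4, cyp-35A5, cyp-35C1 and cyp-37B1. cyp-13A5 and cyp-13A6 were past 2-fold higher at both. Averaged over both oxygen levels with limma, cyp-35A3, cyp-35A4 and cyp-35C1 fell (0.976% of all compared loci were called lower) and cyp-13A5 rose (0.131% called higher). Without the mean-variance trend limma called 0 of the 36 loci for RNAi, and 0 of all 10655 compared loci. At an unadjusted p under 0.05 it had 15 of the 36, beside 1397 of all compared loci.

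**Figure D4:**
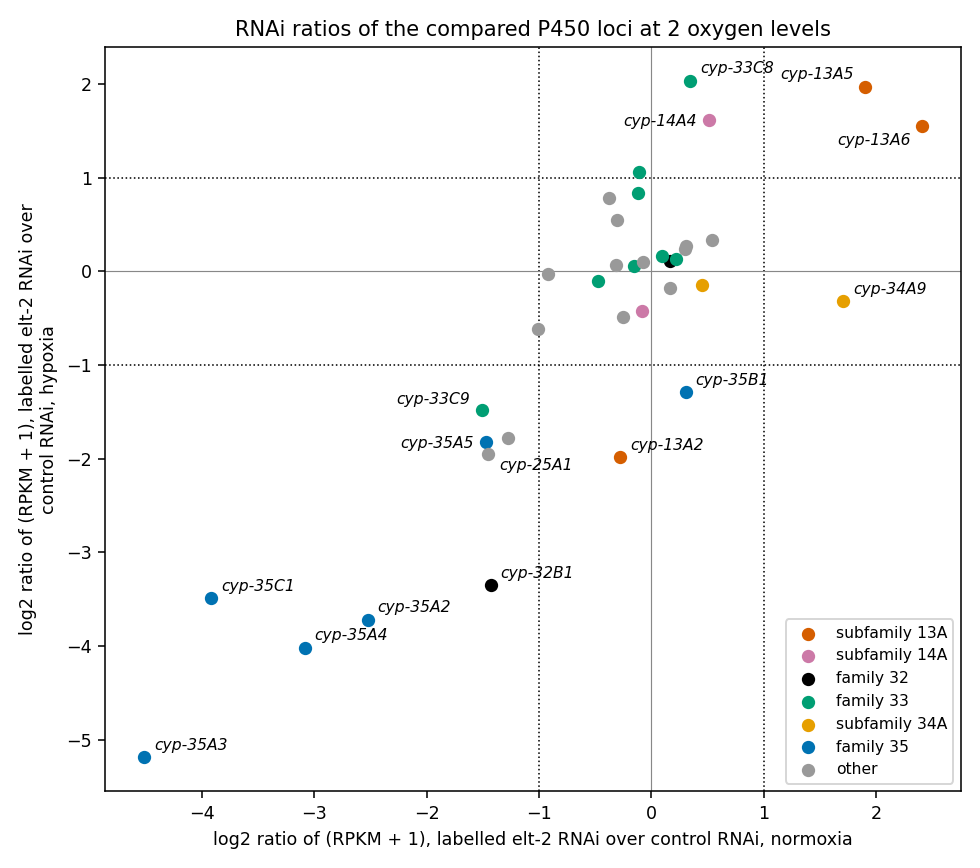
Log2 ratio of (RPKM + 1), labelled elt-2 RNAi over control RNAi, for the 36 compared P450 loci in hypoxia (y) and normoxia (x), 1 library per group; dotted lines mark 2-fold. On y and x, cyp-35A3 lies at -5.19 and -4.51 and cyp-35C1 at -3.49 and -3.91, with cyp-13A5 at 1.96 and 1.90 on the opposite side; the point of cyp-35A4 uses a library listed at 0.

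Subfamily 13A held 11 loci, of which 3 were compared. cyp-13A5 (chromosome II, 9798219 to 9800304, minus strand, ce10) was at 135 RPKM in hypoxia and 13.6 in normoxia with labelled elt-2 RNAi, and at 33.9 RPKM in hypoxia and 2.91 in normoxia with control RNAi. The hypoxia library was higher in each food, and the labelled elt-2 RNAi library was higher at each oxygen level. Its log2 ratio for hypoxia was 3.22 in labelled elt-2 RNAi and 3.16 in control RNAi, a difference of 0.06. By limma over the 4 libraries it rose in hypoxia by an average of 3.19 ± 0.098 (SE; adjusted p = 0.0139). With labelled elt-2 RNAi it rose by 1.93 ± 0.098 (SE; limma adjusted p = 0.0247), a call lost without the trend (adjusted p = 0.0723) and with a pseudocount of 5 RPKM (adjusted p = 0.103), in a range from 0.0207. In the authors' deposited table it was called for hypoxia in both foods and for RNAi at neither oxygen level.

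Its neighbour cyp-13A6 (9800702 to 9802662, minus strand) was at 132 RPKM in hypoxia and 89.7 in normoxia with labelled elt-2 RNAi, and at 44.4 RPKM in hypoxia and 16.1 in normoxia with control RNAi. Both libraries labelled elt-2 RNAi were above both control libraries. The average hypoxia effect by limma was 0.98 ± 0.234 (SE; adjusted p = 0.0498), and the average RNAi effect of 1.98 ± 0.234 did not pass (adjusted p = 0.0816). The hypoxia call was lost without the trend (adjusted p = 0.0882) and when low genes were kept (adjusted p = 0.0719), within a range of 0.0472 to 0.0882 over its 5 alternatives. The authors' deposited table called it for RNAi in normoxia, with an adjusted p of 0.0377.

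cyp-13A2 differed from both, at 1.35 RPKM in hypoxia and 1.74 in normoxia with labelled elt-2 RNAi, and at 8.31 RPKM in hypoxia and 2.32 in normoxia with control RNAi. Control RNAi hypoxia was the one high library. Its log2 ratio for RNAi was -1.99 in hypoxia and -0.28 in normoxia, and limma called neither average effect (adjusted p = 0.341 for hypoxia and 0.338 for RNAi). cyp-13A12, known for a role in behaviour on return of oxygen, was under the filter, at 0.161 RPKM in hypoxia and 0.0829 in normoxia with labelled elt-2 RNAi, and at 0.301 and 0.18 RPKM in hypoxia and normoxia with control RNAi.

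Subfamily 14A had 2 compared loci of 5. cyp-14A4 was at 6.53 RPKM in hypoxia and 0.506 in normoxia with labelled elt-2 RNAi, and at 1.46 RPKM in hypoxia and 0.0575 in normoxia with control RNAi. Hypoxia was the higher library in each food, and by limma it rose by an average of 1.77 ± 0.337 (SE; adjusted p = 0.0354). That call was lost without the trend, with a pseudocount of 5 RPKM and with no filter. cyp-14A5 was at 17.4 RPKM in hypoxia and 21.0 in normoxia with labelled elt-2 RNAi, against 23.7 in hypoxia and 22.3 in normoxia with control RNAi. Its log2 ratios lay between -0.43 and 0.08 in the 4 comparisons.

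Family 32 had 2 loci, both compared. cyp-32B1 (chromosome V, 2198058 to 2201414, minus strand) was at 4.44 RPKM in hypoxia and 0.121 in normoxia with labelled elt-2 RNAi, and at 54.6 RPKM in hypoxia and 2.01 in normoxia with control RNAi. Hypoxia was higher in each food and labelled elt-2 RNAi was lower at each oxygen level, so that control RNAi hypoxia was far above the rest. By limma it rose in hypoxia by an average of 3.24 ± 0.525 (SE; adjusted p = 0.0291), with no call for the RNAi effect of -2.39 ± 0.525 (adjusted p = 0.208). The hypoxia call was lost with a pseudocount of 5 RPKM (adjusted p = 0.0785) and without the trend (adjusted p = 0.0519), and the RNAi effect was called with a pseudocount of 0.1 RPKM (adjusted p = 0.0251). Over the 5 alternatives the limma adjusted p ran from 0.0118 to 0.0785 for hypoxia and from 0.0251 to 0.34 for RNAi. The authors' deposited table called cyp-32B1 for hypoxia in control RNAi and for RNAi in hypoxia. It was not called there for hypoxia in labelled elt-2 RNAi or for RNAi in normoxia. cyp-32A1 was at 2.06 RPKM in hypoxia and 3.55 in normoxia with labelled elt-2 RNAi, and at 1.85 and 3.07 RPKM in hypoxia and normoxia with control RNAi. It was lower in hypoxia in each food, opposite to cyp-32B1, and limma did not call it (adjusted p = 0.0787). Without the trend, limma did call cyp-32A1 for hypoxia.

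Family 33 had 18 loci, 8 of them compared, and 4 of these rose in hypoxia by limma while none fell, beside 17.2% of all compared loci called higher and 15.7% lower. Of the 4 calls, those of cyp-33A1 and cyp-33C7 were lost without the trend, with a pseudocount of 5 RPKM and with no filter. cyp-33C8 was at 76.8 RPKM in hypoxia and 6.79 in normoxia with labelled elt-2 RNAi, and at 18.1 RPKM in hypoxia and 5.14 in normoxia with control RNAi. The normoxia libraries were close and the hypoxia libraries were apart, with labelled elt-2 RNAi the higher. Its log2 ratio for hypoxia was 3.32 in labelled elt-2 RNAi and 1.64 in control RNAi, with an average effect by limma of 2.48 ± 0.452 (SE; adjusted p = 0.0335), lost without the trend (adjusted p = 0.0607, the highest of 5 alternatives from 0.0276). The authors' deposited table called it for hypoxia in labelled elt-2 RNAi and not in control RNAi, where its adjusted p was 0.439.

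cyp-33C7 also had its highest value in hypoxia with labelled elt-2 RNAi, at 15.5 RPKM in hypoxia and 3.78 in normoxia with labelled elt-2 RNAi, and at 8.25 RPKM in hypoxia and 4.2 in normoxia with control RNAi. Its average hypoxia effect was 1.31 ± 0.287 (SE; limma adjusted p = 0.0434), which missed 0.05 under 3 of 5 alternatives (range 0.0383 to 0.069). cyp-33C4 was at 4.81 RPKM in hypoxia and 1.32 in normoxia with labelled elt-2 RNAi, and at 1.78 RPKM in hypoxia and 1.5 in normoxia with control RNAi. Its one high library was the same as for its relatives, and limma did not call it (adjusted p = 0.174).

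cyp-33C9 went another way, at 3.44 RPKM in hypoxia and 2.25 in normoxia with labelled elt-2 RNAi, and at 11.4 RPKM in hypoxia and 8.26 in normoxia with control RNAi. Both libraries labelled elt-2 RNAi were below both control libraries, with log2 ratios of -1.48 in hypoxia and -1.51 in normoxia. limma did not call this average (adjusted p = 0.0649).

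cyp-33A1 was at 23.6 RPKM in hypoxia and 16.5 in normoxia with labelled elt-2 RNAi, and at 21.0 RPKM in hypoxia and 15.4 in normoxia with control RNAi. cyp-33E1 was at 7.22 RPKM in hypoxia and 3.43 in normoxia with labelled elt-2 RNAi, and at 6.54 RPKM in hypoxia and 2.8 in normoxia with control RNAi. Both were higher in hypoxia in each food, and rose on average by 0.46 ± 0.104 and 0.94 ± 0.156 (SE; limma adjusted p = 0.0458 and 0.03), the call of cyp-33E1 being lost with no filter. cyp-33E3 was at 1.57 RPKM in hypoxia and 0.737 in normoxia with labelled elt-2 RNAi, and at 1.47 RPKM in hypoxia and 0.938 in normoxia with control RNAi, and was not called (limma adjusted p = 0.133). cyp-33E2, known in C. elegans for making eicosanoids from polyunsaturated fatty acids, was at 2.83 RPKM in hypoxia and 2.24 in normoxia with labelled elt-2 RNAi, and at 3.12 and 3.52 RPKM in hypoxia and normoxia with control RNAi. It was not called (limma adjusted p = 0.837 for hypoxia).

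Subfamily 34A had 10 loci and 2 compared, which lie next to each other. cyp-34A9, also known as dod-16 for its dependence on the insulin pathway factor DAF-16, was at 18.8 RPKM in hypoxia and 34.5 in normoxia with labelled elt-2 RNAi, and at 23.8 RPKM in hypoxia and 9.87 in normoxia with control RNAi. Hypoxia was the lower library with labelled elt-2 RNAi and the higher one with control RNAi. cyp-34A8 was at 7.32 RPKM in hypoxia and 15.7 in normoxia with labelled elt-2 RNAi, and at 8.23 RPKM in hypoxia and 11.2 in normoxia with control RNAi. It was lower in hypoxia in both foods, just past 2-fold with labelled elt-2 RNAi, and limma called no effect of either gene (adjusted p = 0.813 for cyp-34A9 and 0.0689 for cyp-34A8, hypoxia).

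Family 35 had 10 loci, 6 of them compared. All 6 were at least 2-fold lower with labelled elt-2 RNAi in hypoxia (5.08% of all compared loci), and 5 of the 6 in normoxia (3.66% of all), cyp-35B1 being the exception. Genes of subfamily 35A are known in C. elegans to be induced by foreign chemicals and to affect fat storage. cyp-35A2 (chromosome V, 7362298 to 7364186, minus strand) was at 17.7 RPKM in hypoxia and 15.2 in normoxia with labelled elt-2 RNAi, against 245 RPKM in hypoxia and 91.8 in normoxia with control RNAi. Its hypoxia ratio was 0.21 in labelled elt-2 RNAi and 1.41 in control RNAi, and its average RNAi effect of -3.12 ± 0.321 (SE) was not called by limma (adjusted p = 0.0664). It was called with a pseudocount of 0.1 RPKM (adjusted p = 0.0477, in a range up to 0.153 over 5 alternatives), and the authors' deposited table called it for RNAi in hypoxia.

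cyp-35A3 was close to 0 in the libraries labelled elt-2 RNAi, at 0.18 RPKM in hypoxia and 0.167 in normoxia, against 42.1 RPKM in hypoxia and 25.6 in normoxia with control RNAi. limma put its average RNAi effect at -4.85 ± 0.233 (SE; adjusted p = 0.0247), the lowest of the 36 loci, and lost the call without the trend (adjusted p = 0.0723, the highest of 5 alternatives). In the authors' deposited table cyp-35A3 was not called for RNAi at either oxygen level. cyp-35A4 was at 0.0888 RPKM in hypoxia and listed at 0 in normoxia with labelled elt-2 RNAi, against 16.7 RPKM in hypoxia and 7.47 in normoxia with control RNAi. Its RNAi call by limma (adjusted p = 0.0436) uses the library listed at 0 and was lost under 4 of 5 alternatives, in a range of 0.0207 to 0.118. The authors called cyp-35A4 for RNAi in normoxia, a comparison with that same library, and not in hypoxia. cyp-35A5 was lower throughout, at 0.218 RPKM in hypoxia and 0.132 in normoxia with labelled elt-2 RNAi, against 3.3 RPKM in hypoxia and 2.15 in normoxia with control RNAi. These paralogs are alike in sequence, so that the counting could split reads between them, and the split among cyp-35A2 to cyp-35A5 is uncertain, as it is between cyp-31A2 and cyp-31A3 and within subfamily 13A.

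cyp-35C1 (chromosome V, 13896643 to 13898474, minus strand) was at 7.29 RPKM in hypoxia and 1.07 in normoxia with labelled elt-2 RNAi, against 92.3 RPKM in hypoxia and 30.2 in normoxia with control RNAi. It was higher in hypoxia in both foods and lower with labelled elt-2 RNAi at both oxygen levels. limma called both averages, a hypoxia effect of 1.79 ± 0.159 (SE; adjusted p = 0.0157) and an RNAi effect of -3.70 ± 0.159 (adjusted p = 0.0247), of which the second was lost without the trend (adjusted p = 0.0723, in a range from 0.0231). Of the family 35 loci it alone was called for hypoxia by limma. The authors' deposited table called cyp-35C1 for RNAi at both oxygen levels and for hypoxia in neither food. cyp-35B1, a known DAF-16 target, was at 1.69 RPKM in hypoxia and 3.52 in normoxia with labelled elt-2 RNAi, and at 5.6 RPKM in hypoxia and 2.65 in normoxia with control RNAi, so that its order by oxygen was reversed between the foods.

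Among the other families, cyp-31A2 and cyp-31A3 are close paralogs needed for the lipid layer of the eggshell. cyp-31A2 was at 157 RPKM in hypoxia and 177 in normoxia with labelled elt-2 RNAi, and at 129.6 RPKM in hypoxia and 142 in normoxia with control RNAi. cyp-31A3 was at 77.9 RPKM in hypoxia and 115 in normoxia with labelled elt-2 RNAi, and at 65.9 RPKM in hypoxia and 92.9 in normoxia with control RNAi. Both were lower in hypoxia in each food, and cyp-31A3 fell, with an average effect of -0.52 ± 0.066 on the log2 scale (SE; limma adjusted p = 0.0222, and 0.0513 without the trend, the highest of 5 alternatives from 0.0197). The 6 germline and oocyte markers had a median log2 ratio for hypoxia of -0.41 in labelled elt-2 RNAi and -0.47 in control RNAi, none of them past 2-fold, and summed to 2053 RPKM in hypoxia and 2863 in normoxia with labelled elt-2 RNAi and to 1724 RPKM in hypoxia and 2497 in normoxia with control RNAi. By limma 4 of these 6 markers fell in hypoxia, beside 15.7% of all compared loci, and their part in the cyp-31A values was not tested.

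cyp-25A1 was the one compared member past 2-fold lower in hypoxia in both foods, at 0.645 RPKM in hypoxia and 6.79 in normoxia with labelled elt-2 RNAi, and at 5.38 RPKM in hypoxia and 20.3 in normoxia with control RNAi. By limma it fell in hypoxia, with an average effect of -1.99 ± 0.199 (SE; adjusted p = 0.0173), and its RNAi effect of -1.70 ± 0.199 was not called (adjusted p = 0.0801). cyp-25A2, the next gene on the chromosome, also fell in hypoxia, with an effect of -0.65 ± 0.124 (SE; limma adjusted p = 0.0356), and cyp-25A3 and cyp-25A4 were not called. The cyp-25A2 call was lost without the trend and with no filter. cyp-13B2 fell, with an effect of -0.85 ± 0.182 (SE; limma adjusted p = 0.0419), a call lost with no filter.

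cyp-36A1, known in C. elegans to act downstream of EGL-9 and HIF-1 through the nuclear receptor NHR-46, was at 16.2 RPKM in hypoxia and 5.23 in normoxia with labelled elt-2 RNAi, and at 9.02 RPKM in hypoxia and 7.08 in normoxia with control RNAi. Hypoxia with labelled elt-2 RNAi stood above the other 3, and limma called neither average (adjusted p = 0.112 for hypoxia). cyp-37A1 was at 10.05 RPKM in hypoxia and 3.82 in normoxia with labelled elt-2 RNAi, and at 10.2 RPKM in hypoxia and 8.14 in normoxia with control RNAi, the one low library being normoxia with labelled elt-2 RNAi. cyp-43A1 was likewise lowest there, at 11.4 RPKM in hypoxia and 5.19 in normoxia with labelled elt-2 RNAi, and at 17.9 RPKM in hypoxia and 11.5 in normoxia with control RNAi, and rose in hypoxia by an average of 0.80 ± 0.163 (SE; limma adjusted p = 0.0389). That call missed 0.05 without the trend (adjusted p = 0.0537) and when low genes were kept (adjusted p = 0.0612), in a range from 0.0359. cyp-37B1 was at 1.26 RPKM in hypoxia and 2.45 in normoxia with labelled elt-2 RNAi, against 6.79 and 7.34 RPKM in hypoxia and normoxia with control RNAi. cyp-29A2 and cyp-29A4 lay within log2 ratios of -0.47 and 0.54 in every comparison.

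The hypoxia effect itself differed between the foods by at least 1 on the log2 scale for 9 of 36 loci. It was higher with labelled elt-2 RNAi for cyp-14A4, cyp-33C4, cyp-33C8 and cyp-36A1 (1.99% of all compared loci) and lower for cyp-13A2, cyp-32B1, cyp-34A9, cyp-35A2 and cyp-35B1 (3.15% of all). The differences ran up to 1.68 for cyp-33C8 and down to -2.03 for cyp-34A9, with a median of -0.06 over the 36 loci and 0.02 over all compared loci. With 1 library per group these differences have no test. All of them are on the (RPKM + 1) scale. For cyp-14A4 and cyp-32B1 the authors' deposited log2 fold changes put the foods in the opposite order. cyp-14A4 was at only 0.506 RPKM in normoxia with labelled elt-2 RNAi and 0.0575 with control RNAi. cyp-32B1 was at 0.121 RPKM in normoxia with labelled elt-2 RNAi. The direction of the difference for these loci thus depends on the scale.

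P450 loci lay close together on the chromosomes. Of the 75 loci, 43 were on chromosome V, and 42 lay in 11 runs of neighbours separated by at most 5000 bp. Neighbours had unequal levels: in the run of 8 loci on chromosome II that holds cyp-13A1 to cyp-13A8, the mean over the 4 libraries ran from 0.104 RPKM for cyp-13A4 to 70.6 RPKM for cyp-13A6. In the run of 11 loci on chromosome V, from cyp-35A5 to cyp-34A10, it ran from 0.0611 to 21.7 RPKM and 4 loci were compared. In the pair cyp-35A1 and cyp-35A2 the means were 0.0761 and 92.5 RPKM.

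**Figure D5:**
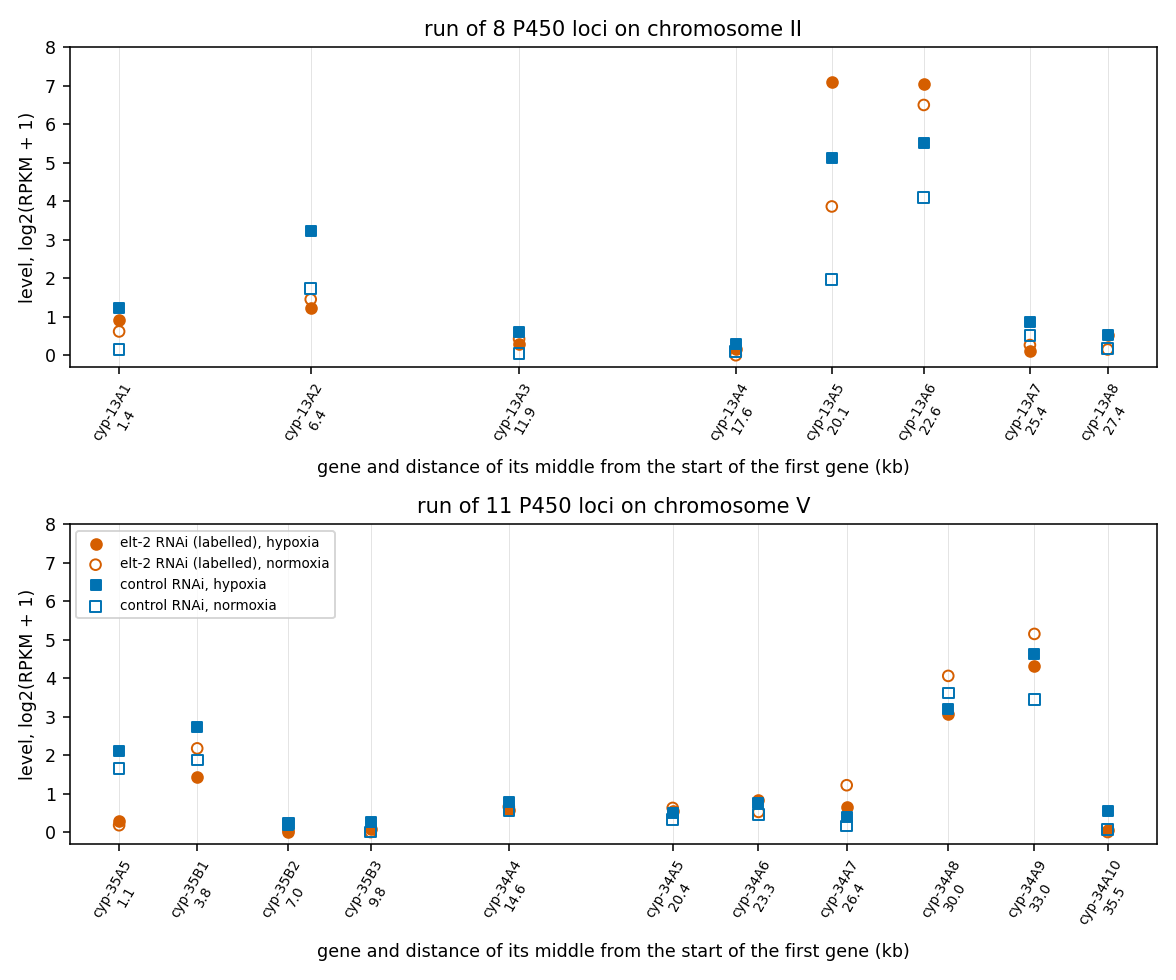
Level as log2(RPKM + 1) of the P450 loci in the runs of 8 loci on chromosome II (top) and 11 loci on chromosome V (bottom), against distance from the start of the first gene; filled symbols are hypoxia, circles labelled elt-2 RNAi. cyp-13A5 and cyp-13A6 stand above their neighbours in each library, as do cyp-34A8 and cyp-34A9.

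The 39 loci under the filter had means from 0 to 0.994 RPKM, with cyp-42A1 just outside and cyp-33E3, at 1.18 RPKM, just inside. They comprised 8 loci of 13A, 3 of 14A, 10 of family 33, 8 of 34A, 4 of family 35 and 6 others. cyp-33B1 was listed at 0 in all 4 libraries. Of the 39, 7 reached 1 RPKM in at least 1 library, the highest being cyp-14A1 at 1.84 RPKM in control RNAi hypoxia. cyp-29A3, the other gene of these families known for eicosanoid synthesis in C. elegans, was at 0.68 RPKM in hypoxia and 0.733 in normoxia with labelled elt-2 RNAi, and at 1.08 and 0.9 RPKM in hypoxia and normoxia with control RNAi. A further gene, cyp-44A1, shared its locus with ZK177.4 and was not a member. That joint locus was at 58.6 RPKM in hypoxia and 60.8 in normoxia with labelled elt-2 RNAi, and at 69.2 and 75.2 RPKM in hypoxia and normoxia with control RNAi.

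Among the electron donors and sterol partners of P450 enzymes, 4 of 7 listed genes were compared, and 3 of them rose in hypoxia by limma, beside 17.2% of all compared loci. Calls by limma for listed genes outside the P450 members, here and elsewhere, are given without the alternatives used for the members. emb-8, the NADPH-cytochrome P450 reductase, was at 197 RPKM in hypoxia and 121 in normoxia with labelled elt-2 RNAi, and at 128 RPKM in hypoxia and 109 in normoxia with control RNAi, and was not called (adjusted p = 0.0734). The cytochrome b5 genes cytb-5.1 and cytb-5.2, whose products also pass electrons, rose by averages of 1.03 ± 0.078 and 0.85 ± 0.094 (SE; limma adjusted p = 0.0144 and 0.0195). daf-36, a Rieske oxygenase that acts on cholesterol early in steroid hormone synthesis, was at 5.89 RPKM in hypoxia and 2.91 in normoxia with labelled elt-2 RNAi, and at 30.2 RPKM in hypoxia and 7.03 in normoxia with control RNAi, and rose by 1.39 ± 0.326 (adjusted p = 0.0489). daf-9, the P450 that completes those hormones and is not named cyp, stayed under the filter at 0.517 RPKM in hypoxia and 0.518 in normoxia with labelled elt-2 RNAi, and at 0.567 and 0.536 RPKM in hypoxia and normoxia with control RNAi. dhs-16 was also under the filter, and hsd-1 was listed at 0 in all 4 libraries.

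Of 17 listed regulators, 16 were compared, 5 rose in hypoxia by limma and 1 fell, beside 17.2% and 15.7% of all compared loci, and none was called for RNAi. nhr-8, a nuclear receptor with a role in xenobiotic resistance, was at 16.8 RPKM in hypoxia and 6.91 in normoxia with labelled elt-2 RNAi, and at 29.8 RPKM in hypoxia and 11.4 in normoxia with control RNAi (average hypoxia effect 1.25 ± 0.12, SE; adjusted p = 0.0170). The stress factor gene pqm-1 and the intestinal GATA gene elt-7 rose by 1.42 ± 0.086 and 1.21 ± 0.173 (adjusted p = 0.0143 and 0.0251), and nhr-49 and elt-2 rose by 0.30 ± 0.068 and 1.09 ± 0.235 (adjusted p = 0.0449 and 0.0423). nhr-46, the receptor linked to cyp-36A1, fell, with an effect of -0.69 ± 0.103 (adjusted p = 0.0261). hif-1 and egl-9 were not called (adjusted p = 0.156 and 0.188). hif-1 was at 44.01 RPKM in hypoxia and 37.6 in normoxia with labelled elt-2 RNAi, and at 43.3 RPKM in hypoxia and 39.3 in normoxia with control RNAi. Average hypoxia effects of the other regulators not called ran from -0.47 for aha-1, through -0.44 for nhr-48, -0.29 for skn-1, -0.17 for mdt-15, -0.13 for nhr-86, 0.04 for nhr-114 and 0.06 for daf-16, to 0.58 for daf-12 (limma adjusted p = 0.0546 or more). ahr-1, the aryl hydrocarbon receptor, was under the filter, with values from 0.164 to 0.426 RPKM.

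The flavin monooxygenases, another class of oxygen-using detoxification enzymes, had 4 compared loci, of which 3 rose in hypoxia and 1 fell by limma, beside 17.2% and 15.7% of all compared loci. fmo-2 was at 5.46 RPKM in hypoxia and 0.625 in normoxia with labelled elt-2 RNAi, and at 46.4 RPKM in hypoxia and 2.42 in normoxia with control RNAi, the same order of libraries as for cyp-32B1. fmo-2 rose by an average of 2.89 ± 0.492, fmo-4 by 0.66 ± 0.114 and fmo-5 by 0.80 ± 0.175 (SE; limma adjusted p = 0.0309, 0.0313 and 0.0434). fmo-3 fell, with an average effect of -2.28 ± 0.249 (SE; limma adjusted p = 0.0191). The next counts stand beside the same 17.2% called higher and 15.7% called lower in hypoxia, and 0.976% called lower with labelled elt-2 RNAi, over all compared loci. Short-chain dehydrogenases had 6 of 26 called higher and 4 lower in hypoxia, the second near that share. UDP-glucuronosyltransferases, which conjugate P450 products, had 8 of 44 called higher and 6 lower in hypoxia, both near the share of all compared loci, and 3 lower with labelled elt-2 RNAi. Glutathione S-transferases had 2 of 25 called higher and 7 lower in hypoxia, and 2 lower with labelled elt-2 RNAi. In control RNAi the ratios for hypoxia ran from -1.77 (ugt-63) to 4.13 (ugt-18), from -1.84 (gst-4) to 1.52 (gst-6) and from -2.98 (dhs-26) to 1.61 (dhs-14) within these families.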

How the data were processed

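Libraries for paired-end reads of 100 bp were made from total RNA of 4 samples and sequenced together, per the labels' protocols. Groups came from the sample titles. The authors deposited RPKM per gene in 6 tables, each of 1 library against another, per the file headers, with 0 differing values between tables for a library. TopHat2 2.0.8b, Cufflinks 2.1.1 and the build ce10 are named in the submitters' processing notes, with no role. No source used here gives the annotation or the treatment of strand. The deposited tables also hold the authors' log2 fold change, test statistic (a score, not used), p-value and FDR-adjusted p-value from 1 library against 1 library; these compare libraries, not conditions.

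A locus was compared if its 4 libraries averaged 1 RPKM or more, the name held 1 gene and no table gave the status FAIL, HIDATA or LOWDATA (8 loci); 334 loci named several genes. Ratios used a pseudocount of 1 RPKM, and pairwise ratios have no test. For average effects, limma 3.58.1 (R 4.3.3) took log2(RPKM + 1) with additive terms for oxygen and RNAi and with its trend option, and p-values were adjusted by Benjamini-Hochberg over all 10655 loci, with calls at 0.05. The fit was tested on simulated data with additive effects only, so that the check did not cover effects that differ between the RNAi foods. The p-values of the fit take as error the difference of the hypoxia effect between RNAi foods, with information shared across genes. They do not measure a spread between replicates, and differences between these 4 libraries may be technical. FDR calls by the authors are credited where printed.

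Total reads are unknown. Among genes under 0.3 RPKM, the value of 1 read relative to normoxia with control RNAi was 0.874 in hypoxia and 1.09 in normoxia with labelled elt-2 RNAi, and 0.997 in hypoxia with control RNAi, within a limited search range. No interval for counting error is given.

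All 75 members were found in the RefSeq table of the WBcel235 assembly, 66 by accession and 9 by symbol, used for names only. It lists cyp-25A5 and cyp-34A3 as pseudogenes and cyp-34A4 as dach-1. Coordinates are those of the files on ce10. Values in each library are given for compared members past 2-fold in any comparison with a mean of at least 5 RPKM, for the 3 highest means, and for the reported subfamilies. cyp-13A12 and cyp-29A3 were named for their known roles. The members and all gene lists were chosen with earlier results of these data known. The alternatives changed the pseudocount (0.1 or 5 RPKM) or the filter (none, or a mean of 5 RPKM), centred ratios on the median gene, kept loci with several gene names, or left out limma's trend.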

Additional observations from a re-analysis of the deposited data

Results flagged for a closer look

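For 3 compared P450 loci the hypoxia library was higher than the normoxia library with control RNAi and lower with labelled elt-2 RNAi, and the log2 ratios differed by more than 1. The difference, labelled elt-2 RNAi minus control RNAi, was -1.71 for cyp-13A2, -2.03 for cyp-34A9 and -1.60 for cyp-35B1. These differences were not tested, since each of the 4 values is 1 library.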

How the results depend on the processing

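With a pseudocount of 5 RPKM, 1 P450 locus was at least 2-fold lower in hypoxia in labelled elt-2 RNAi and 6 were higher in control RNAi. For labelled elt-2 RNAi over control, 3 were higher and 6 lower in hypoxia, and 5 were lower in normoxia. At that pseudocount limma called 2 for RNAi, beside 51 of all 10655 compared loci. With a mean of at least 5 RPKM, 3 of 21 were higher and 7 lower with labelled elt-2 RNAi in hypoxia. The shares of all loci past 2-fold under these settings are not given here, so these counts show only how the P450 numbers moved. limma without the trend called 6 for hypoxia, beside 2182 of all 10655 compared loci, and 0 for RNAi, beside 0 of all. At an unadjusted p under 0.05 for RNAi there were 15, beside 1397 of all. With no filter limma called 6 for hypoxia, beside 2215 of 17194 loci. The cause was not tested. The other counts moved by at most 1.5 times. The medians kept their sign but not their size: for hypoxia they ran from 0.07 to 0.52 in labelled elt-2 RNAi and from 0.22 to 0.60 in control RNAi, and for RNAi from -0.32 to -0.03 in hypoxia and from -0.25 to -0.04 in normoxia. No named locus changed direction. Of the values of named loci, 30 missed and 2 newly passed their threshold under an alternative. cyp-34A8 in labelled elt-2 RNAi was under 2-fold once centred. Keeping loci that name several genes added no member. No paired analysis was possible because the labels number no replicates and each group has 1 library, and for the same reason no library could be left out. Depth is unknown, so values under 1 RPKM carry little weight.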
